A study of Mus musculus with 8 samples.

Results

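RAW264.7, a macrophage-like mouse cell line grown from a virus-induced tumour, was measured after 6 h and after 4 h with one of 2 bacteria, and the change of the response between these times is described here. Of the 8 arrays of the series, the 4 of these times carry the comparison, and the others add only to the estimate of spread. The 4 are those of L. acidophilus MTCC-10307 (6 h, then 4 h) and those of B. clausii MTCC-8326 (6 h, then 4 h). Every array carried Cy5-labelled RNA of cells given 100 bacteria per cell beside Cy3-labelled RNA of untreated cells of the same time, and each RNA was an equal pool of 3 cultures. There is thus 1 array for each bacterium and time, and a value is the log2 ratio of treated to untreated signal. A change is the ratio at 6 h minus the ratio at 4 h within a bacterium, averaged over both bacteria, so a positive change means a higher ratio at 6 h. A change of the ratio can come from either RNA.

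Macrophages sense bacterial wall material through Toll-like and NOD-like receptors, which act through NF-kB and MAP kinases. Immediate early genes and chemokines answer first, and feedback inhibitors, stress programmes and metabolic genes follow. The unfolded protein response, in which IRE1, PERK and ATF6 sense unfolded protein in the endoplasmic reticulum (ER), and the sterol programme, in which SREBP2 drives cholesterol synthesis, are both parts of the macrophage's answer to microbial products.

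The label of the cells was held against marker genes. Of 15 macrophage markers 14 were well above background in all 8 channels of the 4 arrays, and the remaining one, Itgam, in 6. None of 14 markers of other cell types was so in all 8 channels, and 8 of them were so in none. Signal was weaker at the later time. The share of probes well above background in the treated channel was 44.6% (L. acidophilus) and 40.7% (B. clausii) at 6 h, against 51.1% and 45.7% at 4 h. In the untreated channel it was 42.6% and 42.0% at 6 h, against 47.1% and 44.9% at 4 h. The median SD between spots of the same probe was 0.130 and 0.130 log2 at 6 h, against 0.110 and 0.0970 at 4 h. Position on the slide coincides with time, so position and time cannot be told apart. The part of weaker signal and wider spot spread in the results below was not tested. The 10 spike-in controls, RNAs added to both channels, moved from 4 to 6 h by between 0.04 and 0.13 log2 with L. acidophilus and between -0.16 and 0.06 with B. clausii.

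Across 14798 genes, 519 (3.51%) passed limma's test at an adjusted p under 0.05. Their ratio was higher at 6 h for 196 (1.32% of all) and lower for 323 (2.18%). All 519 moved in the same direction with both bacteria, which the test favours, since its spread is their disagreement within times. The changes were small with the background offset of 50 used here. Of the 196, 4 reached 2-fold, as did 2 of the 323, and the median change was 0.47 and -0.49 log2. Sizes depend on the processing. Over all genes, 29 (0.196%) differed at least 2-fold between the times with L. acidophilus and 54 (0.365%) with B. clausii. With an offset of 0 these counts were 172 and 245, and with the scanner's processed signals 617 and 781. The test rests on 3 residual degrees of freedom over all 8 arrays and holds no spread between cultures. The labels do not say whether both bacteria shared an untreated pool. The count depends on the processing: it was 20 with the local background as deposited, 70 with median centring, and 0 without the 4 h B. clausii array, with the scanner's processed signals or with a background offset of 0. At an unadjusted p under 0.05, limma gave 3239 genes, and 1777, 2584 and 2798 in those 3 settings.

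The genes whose ratio fell had mostly been raised before. Their median ratio with L. acidophilus was 0.21 at 1 h, 0.16 at 2 h, 0.12 at 4 h and -0.34 at 6 h, and with B. clausii 0.26, 0.17, 0.15 and -0.36 at the same times. The medians of all genes tested stayed between 0.00 and 0.02 at every time and with either bacterium. Of the 323, 207 stood above 0 on average at 4 h and below 0 at 6 h, 26 stayed above 0, and 90 were below 0 at both times. The genes whose ratio rose went the other way: 130 of 196 were below 0 at 4 h and above 0 at 6 h, 50 were above 0 at both times and 16 below 0 at both. Both patterns at 4 and 6 h lie on the same arrays as the test and describe it.

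Setting the 2 RNAs apart, the treated channel changed more than the untreated channel in 309 of the 323 genes that fell (95.7%) and in 166 of the 196 that rose (84.7%), against 64.1% of all genes. The median channel changes of the genes that fell were -0.45 (treated) and 0.06 (untreated) log2, and of those that rose 0.46 and -0.01. Tested alone, each channel gave few calls. The treated channel had 77 genes (0.52%), 5 higher (0.0338%) and 72 lower (0.487%) at 6 h, and the untreated channel 79 (0.534%), 4 higher (0.027%) and 75 lower (0.507%). The 2 channel lists shared 39 genes, 50.6% of the treated list and 49.4% of the untreated list. Only 16 genes of the treated list and 3 of the untreated list were among the 519.

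**Figure D1:**
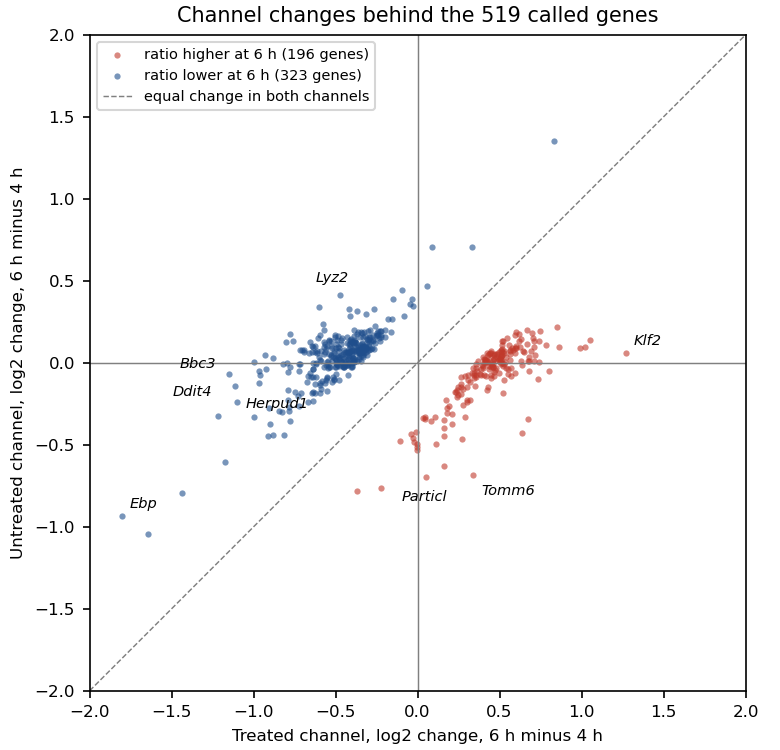
Each point is a gene called in the ratio, with the log2 change from 4 to 6 h in the treated channel (horizontal) and in the untreated channel (vertical), averaged over both bacteria. The 196 genes whose ratio rose (red) lie below the dashed line of equal change and the 323 whose ratio fell (blue) above it, most of them near a vertical value of 0; Ebp had negative changes in both channels and Tomm6 mainly moved in the untreated one.

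Bbc3, whose ratio fell most, encodes PUMA, a BH3-only protein that promotes apoptosis. Its ratio was -0.65 (L. acidophilus) and -0.77 (B. clausii) at 6 h, against 0.35 and 0.40 at 4 h, a change of -1.08 ± 0.09 log2 (SE, adjusted p = 0.00688). Both 6 h values lay below both 4 h values and below 0. In the treated channel alone Bbc3 fell by 1.15 (adjusted p = 0.0305) while the untreated channel moved by -0.07. No other of the 12 measured BCL2 family genes passed, against 3.51% of all genes. At that share a list of this size would hold few calls. Mcl1, an anti-apoptotic member, had 0.30 and 0.30 at 6 h against 0.03 and 0.08 at 4 h. A second probe of Mcl1, nearly as bright, moved by -0.13 and -0.12. Bmf, another BH3-only member, had 0.60 and 0.94 at 6 h against 0.34 and 0.51 at 4 h. Its dim second probe moved by 0.02 and 0.12.

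Ddit4 encodes REDD1, an inhibitor of the growth kinase mTORC1 that stress induces. It had -0.20 and 0.05 at 6 h, against 0.58 and 1.21 at 4 h, a change of -0.97 ± 0.11 (adjusted p = 0.0112). At 1 and 2 h its ratio had been 1.11 and 1.01 in the L. acidophilus arrays and 1.26 and 1.33 in those of B. clausii, so the 6 h arrays are the only ones near 0. Fnip1, a partner of folliculin in nutrient sensing, had -0.16 and -0.44 at 6 h and 0.64 and 0.52 at 4 h; its other 2 probes fell less, by 0.65 and 0.57 with L. acidophilus and by 0.25 and 0.24 with B. clausii.

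Bhlhe40 and Nr1d1 encode transcriptional repressors of the circadian clock. Bhlhe40 had 0.36 and 0.08 at 6 h, against 1.33 and 1.06 at 4 h, with a change of -0.98 ± 0.13 (adjusted p = 0.0122). Nr1d1, which encodes REV-ERB alpha, had -0.41 and 0.09 at 6 h, against 0.68 and 0.82 at 4 h, on its brightest probe (-0.92 ± 0.13, adjusted p = 0.0135). Its other 2 probes, both dimmer, moved by 0.09 and -0.06 with L. acidophilus and by 0.05 and -0.13 with B. clausii, and with the mean over probes Nr1d1 did not pass (adjusted p = 0.102). Of 14 measured clock genes 4 fell, against 2.18% of all genes, and none rose. Nr1d2 (the paralog of Nr1d1) and Nfil3 (a repressor) fell by 0.63 and 0.56. The median of the list was -0.31, against 0.00 for all genes tested. Of its activators, Arntl (BMAL1) had a change of -0.62 that missed the threshold (adjusted p = 0.085), and Clock had -0.07.

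Klf11 and Klf9, Kruppel-like repressors, fell by 0.94 and 0.80. The dimmer second probe of Klf11 moved by 0.01 and -0.31, and that of Klf9 by -0.26 and -0.12. Ndrg1, a stress- and hypoxia-responsive gene, had -0.92 and -0.79 at 6 h, against 0.12 and 0.02 at 4 h, a change of -0.93 ± 0.09 (adjusted p = 0.00688). Vegfb and Lpin1 (a phosphatidate phosphatase and co-activator) fell most with L. acidophilus. Lpin1 had -1.35 and -0.45 at 6 h, against -0.11 and 0.08 at 4 h. Its 3 other probes fell as well, by 0.92 to 1.19 with L. acidophilus and by 0.64 to 0.90 with B. clausii. Vegfb had -1.24 and -0.39 at 6 h and 0.15 and 0.12 at 4 h, but its second probe moved by -0.04 and -0.17. Trpv2, a cation channel of macrophages, had -0.76 and -0.33 at 6 h, against 0.24 and 0.45 at 4 h, and its treated channel fell by 0.96 (adjusted p = 0.0305).

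**Figure D2:**
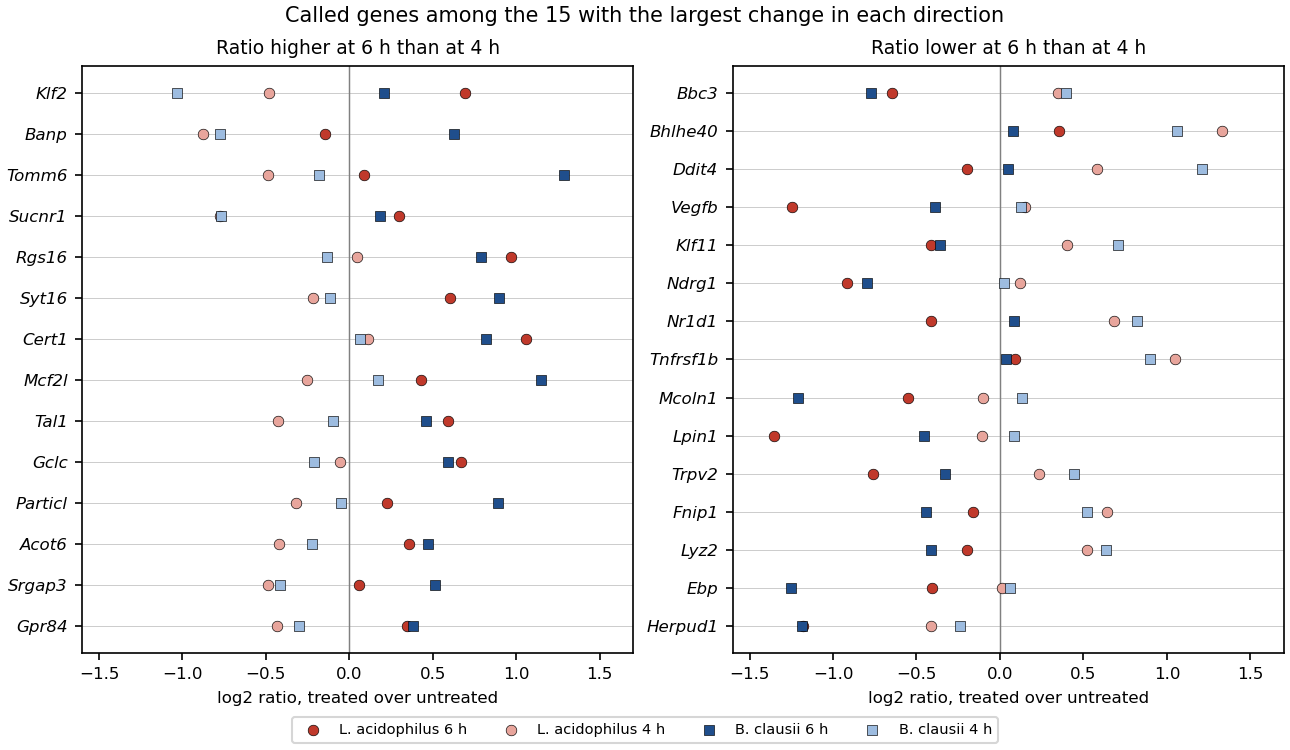
Log2 ratios of treated over untreated cells for 14 of the 15 genes that rose most and the 15 that fell most among those that passed the test, had a symbol and were above background in both channels of all 4 arrays; dark symbols are 6 h, light symbols 4 h, circles L. acidophilus and squares B. clausii. In the left panel the dark symbols lie right of the light ones of the same bacterium, in the right panel left of them.

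Tnfrsf1b, which encodes TNF receptor 2, was measured on 10 spots of its probe. It had 0.09 and 0.04 at 6 h, against 1.05 and 0.90 at 4 h, with SDs between spots of 0.08 to 0.10, and a change of -0.91 ± 0.09 (adjusted p = 0.00688). At 1 and 2 h the ratio had been between 0.19 and 0.56, so the 4 h arrays are the highest of the course. A second, equally dim probe moved by 0.01 and -0.02. Of 22 measured cytokine and TNF superfamily genes 4 fell, against 2.18% of all genes, and none rose. Beside Tnfrsf1b these were Csf1 (macrophage growth factor), Tnfrsf12a and Fas. Csf1 had -0.02 and -0.03 at 6 h, against 0.36 and 0.41 at 4 h, on 9 or 10 spots per array, but was not above background in every channel. Tnf itself had 0.38 and 0.74 at 6 h and 0.49 and 0.56 at 4 h, a change of 0.03 ± 0.11. Cd83, an activation marker, fell by 0.73, and so did Lyz2 (lysozyme M, by 0.88), Cd14 (by 0.52), Msr1 (a scavenger receptor, by 0.66), Csf2rb (by 0.55) and Irf8 (a macrophage transcription factor, by 0.53). For Lyz2 the untreated channel moved by 0.41 and the treated by -0.47, and its dimmer second probe by -0.01 and -0.51. The other 2 probes of Msr1, nearly as bright, moved by 0.03 and -0.09 with L. acidophilus and by -0.04 and -0.06 with B. clausii. The dim second probe of Csf2rb moved by 0.22 and 0.00, and that of Irf8 by 0.13 and 0.11.

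The unfolded protein response was the most uniform of the 37 gene lists. All 28 measured genes had a lower ratio at 6 h, against 7358 of the 14798 genes tested. The lists and their members were chosen with earlier results of these data known, so this uniformity describes the list. The fall passed the test in 9, against 2.18% of all genes: Herpud1, Hspa5, Manf, Ero1b, Hyou1, Edem1, Pdia6, Dnajc3 and Dnajb9. None rose. The median change of the list was -0.36, against 0.00 for all genes, with -0.45 for L. acidophilus and -0.30 for B. clausii. The median change of its treated channels was -0.35 and that of its untreated channels 0.05. The median ratio was -0.32 and -0.09 at 6 h, against 0.10 and 0.20 at 4 h.

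Hspa5 encodes BiP, the main chaperone of the ER lumen. It had 0.00 and 0.09 at 6 h, against 0.86 and 0.73 at 4 h, a change of -0.74 ± 0.13 (adjusted p = 0.0262). At 1 and 2 h it had been 0.62 and 0.98 in the L. acidophilus arrays and 1.04 and 0.90 in those of B. clausii, so it was raised at 3 times and level with untreated cells at 6 h. Its channels moved by -0.42 (treated) and 0.33 (untreated). Herpud1, a component of ER-associated degradation, had -1.18 and -1.19 at 6 h, against -0.41 and -0.24 at 4 h, a change of -0.86 ± 0.08 (adjusted p = 0.00688). It had been at 0.99 and 1.13 at 1 h, and it fell below untreated cells by 4 h and further by 6 h. Manf, a secreted ER stress factor, had -0.18 and -0.12 at 6 h and 0.33 and 0.61 at 4 h. Ero1b, an ER oxidase, fell by 0.59 and its second probe by 0.38 and 0.34. Hyou1, an ER chaperone, fell by 0.53. Edem1, which hands misfolded glycoproteins to degradation, also fell by 0.53, but a second bright probe moved by only -0.01 and -0.13.

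Many of these genes carry the ER stress response element in their promoters, which ATF6, together with the CCAAT-binding factor NF-Y, is known to bind. In RefSeq promoters of build GRCm38.p6, from 250 bases before to 50 after the start of the gene, CCAAT followed by any 9 bases and CCACG was searched on both strands. It occurs in 37 of 27025 genes (0.137%), and in 10 of the 25 genes of the ER list that have a promoter there. The matches are shown because they are the sequence these genes share, with the fixed letters in capitals, 5′ to 3′ on the strand that matches:
Hspa5 (chr2:34772025-34772043): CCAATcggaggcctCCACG
Pdia6 (chr12:17266491-17266509): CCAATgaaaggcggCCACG
Dnajc3 (chr14:118937827-118937845): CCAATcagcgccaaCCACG
Ero1b (chr13:12565682-12565700): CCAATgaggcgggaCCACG
Calr (chr8:84847075-84847093): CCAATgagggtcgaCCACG
Canx (chr11:50325800-50325818): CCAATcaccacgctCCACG
Creld2 (chr15:88819520-88819538): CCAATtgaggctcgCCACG
Syvn1 (chr19:6046532-6046550): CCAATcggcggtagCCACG
Hsp90b1 (chr10:86705638-86705656): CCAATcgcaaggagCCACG
Hsp90b1 (chr10:86705533-86705551): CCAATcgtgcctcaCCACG
Derl3 (chr10:75893242-75893260): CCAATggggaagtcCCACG

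Of these 10 genes 9 were measured. The ratio of 4 fell: Hspa5, Pdia6 (by 0.48), Dnajc3 (by 0.45) and Ero1b. The other 5 had changes that missed the threshold, -0.43 for Hsp90b1 (adjusted p = 0.052), -0.42 for Calr, -0.37 for Creld2, -0.33 for Syvn1 and -0.32 for Canx. The list was drawn up from knowledge of this response, which includes the element, so the share of matches describes the list. The Hspa5 promoter is shown whole because Hspa5 is the marker gene of the response, with the element in capitals (chr2:34771840-34772139, plus strand, GRCm38.p6):
Hspa5: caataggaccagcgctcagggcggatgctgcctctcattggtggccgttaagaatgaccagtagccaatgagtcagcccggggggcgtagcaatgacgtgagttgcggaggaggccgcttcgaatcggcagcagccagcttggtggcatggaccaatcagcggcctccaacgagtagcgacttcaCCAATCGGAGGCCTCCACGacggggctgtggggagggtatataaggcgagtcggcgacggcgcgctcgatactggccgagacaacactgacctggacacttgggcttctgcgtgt
The Herpud1 promoter, shown because Herpud1 fell most in the list, holds the second form of the element, ATTGG followed by any 1 base and CCACG, found in 12 of 27025 genes (0.0444%) and in 2 of the 25 (chr8:94386179-94386478, plus strand, GRCm38.p6):
Herpud1: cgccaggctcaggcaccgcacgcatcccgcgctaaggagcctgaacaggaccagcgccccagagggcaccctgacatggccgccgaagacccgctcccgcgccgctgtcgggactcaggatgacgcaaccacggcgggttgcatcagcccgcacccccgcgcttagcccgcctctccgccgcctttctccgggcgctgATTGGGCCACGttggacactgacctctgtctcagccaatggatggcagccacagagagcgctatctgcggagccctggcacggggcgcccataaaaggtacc
The other gene with this form, Dnajb11, had a change of -0.16 that did not pass.

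**Figure D3:**
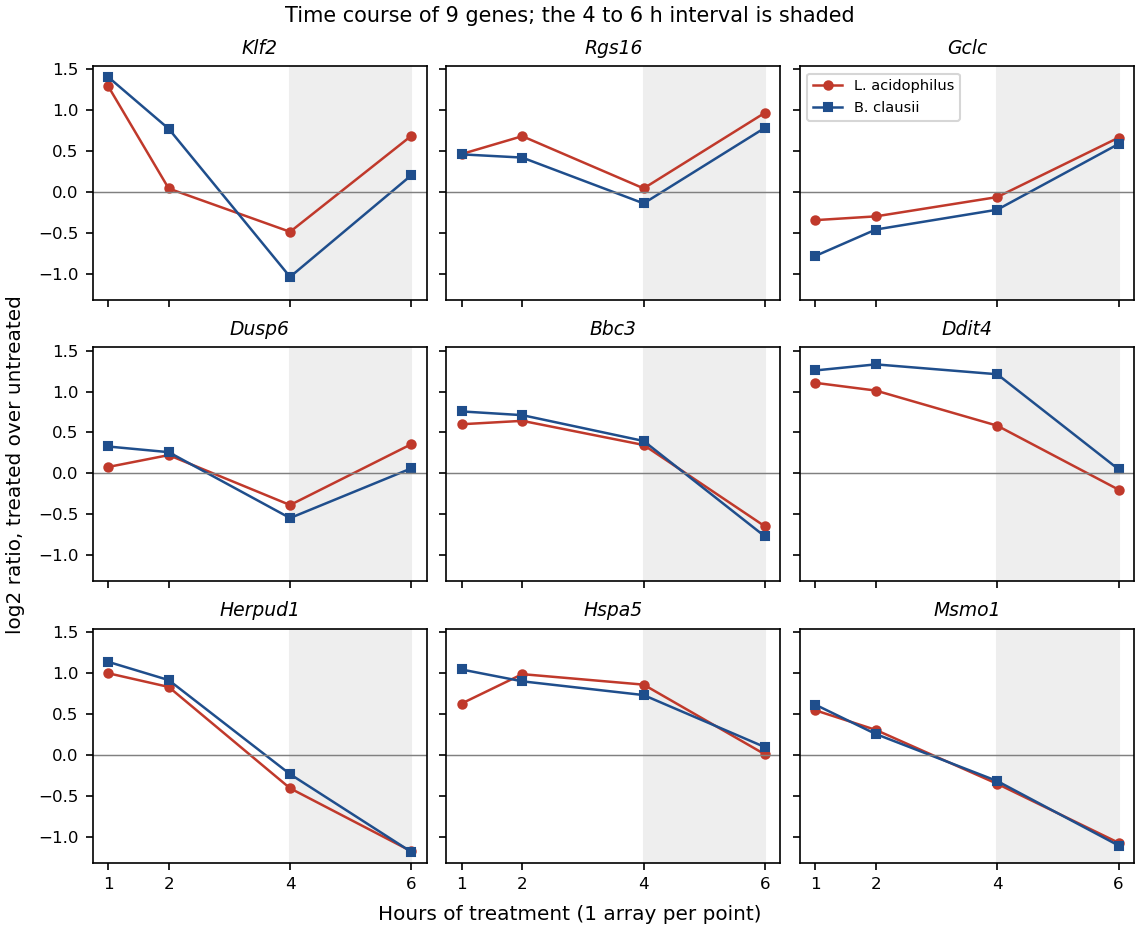
Log2 ratio of treated over untreated cells against hours of treatment, 1 array per point, for L. acidophilus (red circles) and B. clausii (blue squares), with the 4 to 6 h interval shaded. Bbc3, Ddit4, Herpud1, Hspa5 and Msmo1 go down in the shaded interval with both bacteria; Klf2, Rgs16, Gclc and Dusp6 go up in it, Klf2, Rgs16 and Dusp6 after a low at 4 h.

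Genes of the integrated stress response, which ATF4 drives, fell in part. Of 29 measured genes 5 passed, all lower (Ddit4, Ndrg1, Trib3, Sesn2 and Atf3), against 2.18% of all genes. The median was -0.12. Trib3, a pseudokinase that ATF4 induces, had -0.71 and -0.68 at 6 h, against 0.05 and 0.05 at 4 h, a change of -0.75 ± 0.10 (adjusted p = 0.0112). Atf4 itself had -0.55 and -0.98 at 6 h and -0.23 and -0.19 at 4 h, with a change of -0.56 that missed the threshold (adjusted p = 0.0599). Chac1, another ATF4 target, went opposite ways, at -0.37 and -1.41 at 6 h against -1.44 and -1.11 at 4 h. None of the 21 measured aminoacyl-tRNA synthetases passed, against 3.51% of all genes. Of 26 amino acid transporters 3 fell (Slc16a10, Slc7a8 and Slc1a5). Dimmer probes of Slc16a10 moved between -0.08 and 0.18 with L. acidophilus and between -0.19 and 0.25 with B. clausii.

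The cholesterol synthesis list fell in part as well. Of 27 measured genes 8 passed, all lower, against 2.18% of all genes. Among them were Ebp, Idi1, Msmo1, Dhcr7, Cyp51 and Fdft1. The median change was -0.23, with -0.30 for L. acidophilus and -0.19 for B. clausii, and 23 of the 27 were negative. Msmo1, a sterol methyl oxidase with 1 probe, had -1.08 and -1.11 at 6 h, against -0.36 and -0.32 at 4 h, a change of -0.75 ± 0.08 (adjusted p = 0.00823). Idi1, an isomerase of the isoprenoid branch, had -0.57 and -1.08 at 6 h and -0.03 and -0.07 at 4 h. Its dimmer second probe moved by -0.07 and -0.21, and that of Dhcr7 by -0.12 and -0.07. Ebp, a sterol isomerase, fell by 1.80 in the treated channel (adjusted p = 0.0305), beside -0.94 in the untreated channel (adjusted p = 0.222), which left a ratio change of -0.87 ± 0.18 (adjusted p = 0.0408). Cholesterol export genes of the LXR list fell too: Abcg1 and Abca1 by 0.72 and 0.57, among 3 of 17 measured, Lpin1 being the third. For Abca1 both channels fell, with changes of -1.175 (treated) and -0.60 (untreated). For Abcg1 the channels moved by -0.66 (treated) and 0.06 (untreated).

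Of all genes 2.18% passed as lower, the share for the list counts that follow. In the hypoxia and glycolysis list 5 of 33 passed, all lower: Ndrg1, the glucose transporter Slc2a1 (by 0.69), the mitophagy receptor Bnip3 (by 0.68), P4ha1 (by 0.64) and Pfkp (by 0.61). Slc2a1 had -0.32 and 0.17 at 6 h, against 0.68 and 0.54 at 4 h, after 1.29 and 1.30 at 1 h. Adm, the gene of adrenomedullin, had -0.20 and 0.47 at 6 h and 0.21 and 0.52 at 4 h and did not pass. Of 42 lysosomal genes 4 fell, among them Mcoln1 (a calcium channel of the lysosome), Ctsc and Ctsl. Mcoln1 had -0.55 and -1.21 at 6 h and -0.10 and 0.13 at 4 h, and its dim second probe moved by -0.07 and 0.07. For Ctsl the untreated channel moved by 0.36 and the treated by -0.04. In the lipid list Lpin1, Acsl1, Acsl3 and Fabp4 fell, of 15 measured, and in the interferon list Irf8, Ifi204 and Oas1a, of 26 measured. Dimmer probes of Acsl1 moved by -0.18 and 0.10 with L. acidophilus and by 0.20 and -0.12 with B. clausii. A second probe of Ifi204, nearly as bright, moved by -0.12 and 0.06.

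**Figure D4:**
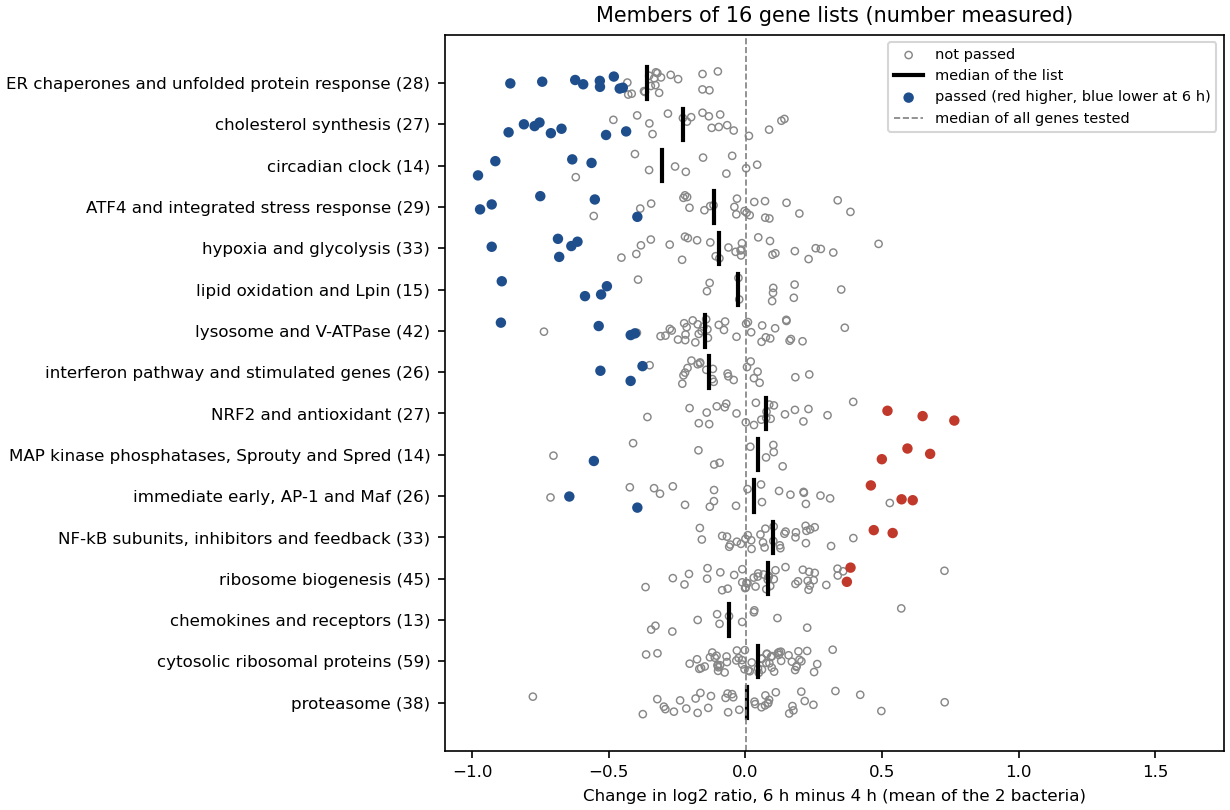
Change of the log2 ratio from 4 to 6 h, averaged over both bacteria, for the measured members of 16 gene lists; filled points passed the test (red higher, blue lower at 6 h), open points did not, the black bar is the median of the list and the dashed line that of all genes. The ER list lies left of the line with all 28 members, the cholesterol list with 23 of 27, and the proteasome list is centred on it.

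Among the genes that rose, Klf2, a Kruppel-like factor that restrains macrophage activation, had the largest change. Its ratio was 0.69 and 0.21 at 6 h, against -0.48 and -1.03 at 4 h, and 1.30 and 1.41 at 1 h, so it fell and came back. The change was 1.21 ± 0.26 (adjusted p = 0.0425), and the treated channel moved by 1.27. That value comes from a probe at chr8:74845137-74845196 (mm9). A second probe of like brightness, at chr8:74843761-74843820, moved by only 0.11 and 0.20, and with the mean over probes Klf2 did not pass (adjusted p = 0.0509).

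Rgs16, which shuts off G protein signalling, had 0.97 and 0.79 at 6 h, against 0.05 and -0.14 at 4 h, a change of 0.92 ± 0.09 (adjusted p = 0.00688). Sucnr1, the receptor for succinate, had 0.30 and 0.18 at 6 h, against -0.78 and -0.77 at 4 h, a change of 1.01 ± 0.10 (adjusted p = 0.00688). It had been between -1.01 and -0.64 at 1 and 2 h, so only the 6 h arrays put it above untreated cells. In Sucnr1 the channels moved by 0.67 (treated) and -0.34 (untreated). Gpr84, a receptor for medium-chain fatty acids, had 0.35 and 0.38 at 6 h and -0.43 and -0.30 at 4 h. There the untreated channel moved by -0.46 and the treated by 0.27.

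Cert1, a ceramide transfer protein, had 1.06 and 0.82 at 6 h and 0.11 and 0.06 at 4 h. Its other 2 probes rose less, by 0.35 and 0.12 with L. acidophilus and by 0.24 and 0.27 with B. clausii. Banp, a nuclear DNA-binding protein, had -0.15 and 0.62 at 6 h, against -0.88 and -0.78 at 4 h, so with L. acidophilus it stayed below untreated cells. Syt16, Mcf2l (a guanine nucleotide exchange factor), Srgap3 and Acot6 (an acyl-CoA thioesterase) rose by 0.91, 0.83, 0.74 and 0.74. For Tomm6, Tal1 and Particl most of the change lay in the untreated channel, at -0.68, -0.63 and -0.69 against 0.34, 0.16 and 0.05 in the treated one.

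Antioxidant genes controlled by NRF2 gave 3 of 27 that rose and none that fell, against 1.32% and 2.18% of all genes. Their median was 0.08. Gclc, the catalytic subunit of glutathione synthesis, had 0.67 and 0.59 at 6 h, against -0.06 and -0.21 at 4 h, a change of 0.76 ± 0.10 (adjusted p = 0.0112). At 1 h it had been -0.34 and -0.78. Hmox1, haem oxygenase, had 0.40 and 0.23 at 6 h, against -0.22 and -0.44 at 4 h (0.65 ± 0.10, adjusted p = 0.0219). Osgin1 rose by 0.52. Txnrd1, thioredoxin reductase, had a change of 0.39 that missed the threshold, and Gstm1 one of -0.36.

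Feedback regulators of MAP kinase signalling split. Of 14 measured genes 3 rose (Dusp6, Spred1 and Dusp2) and 1 fell (Dusp16), against 1.32% and 2.18% of all genes. Dusp6, the phosphatase of ERK, had 0.36 and 0.06 at 6 h, against -0.39 and -0.54 at 4 h, a change of 0.68 ± 0.12 (adjusted p = 0.0315). Spred1, an inhibitor of Ras, rose by 0.59 and Dusp2 by 0.50. Dimmer probes of Spred1 moved by -0.27 and -0.24 with L. acidophilus and by -0.02 and 0.09 with B. clausii. Dim probes of Dusp16 moved by 0.22 and -0.18 with L. acidophilus and by 0.39 and 0.12 with B. clausii. Dusp4 had a change of -0.70 that missed the threshold (adjusted p = 0.0684). Its treated and untreated channels both fell, by 1.50 (adjusted p = 0.0362) and 0.80 (adjusted p = 0.0353). In the immediate early and AP-1 list, Fosl1, Fosl2 and Zfp36 (an RNA-binding brake on cytokine messages) rose by 0.61, 0.57 and 0.46, and Ier5 and Atf3 fell by 0.64 and 0.40, of 26 measured. A dimmer second probe of Fosl2 moved by 0.04 and -0.03. For Zfp36 the untreated channel moved by -0.28 and the treated by 0.18.

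In the NF-kB list 2 of 33 rose, against 1.32% of all genes, and none fell. They were the inhibitor Nfkbie (by 0.54) and the kinase Ripk2 (by 0.47). For Nfkbie both channels moved down, the treated by -0.23 and the untreated by -0.76. Nfkbia had -0.08 and -0.11 at 6 h and -0.02 and -0.18 at 4 h. Tnfaip3 had 0.23 and 0.26 at 6 h and 0.37 and 0.46 at 4 h. Ptgs2, cyclooxygenase-2, was measured on 9 or 10 spots per array. It had 0.33 and -0.05 at 6 h, against -0.36 and -0.63 at 4 h, with SDs between spots of 0.08 to 0.19, a change of 0.63 ± 0.11 (adjusted p = 0.0252). No other of the 14 eicosanoid genes passed, against 3.51% of all genes, a share at which so short a list would hold few calls.

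None of 13 measured chemokine and receptor genes passed, against 3.51% of all genes. Ccl2, a monocyte attractant, had 1.27 and -0.11 at 6 h, against 1.19 and 0.49 at 4 h, on 8 to 10 spots per array. Ccl7 had 1.24 and -0.12 at 6 h and 0.84 and 0.31 at 4 h. For both genes the 6 h values of the 2 bacteria lay far apart, L. acidophilus high and B. clausii near 0. Cxcl2, a neutrophil attractant, had 0.69 and -0.39 at 6 h and -0.06 and -0.79 at 4 h, after 2.07 and 2.35 at 1 h. Ccl3 and Ccl4 had been at 0.96 to 1.30 at 1 h and lay between -0.89 and -0.23 on the 4 arrays. Nos2, Il1b and Il10 had changes of 0.05, 0.11 and 0.07, and Nos2 and Il1b were not above background in every channel.

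Large housekeeping groups did not move as a block. None of 59 cytosolic ribosomal protein genes, 38 proteasome genes or 44 cell cycle and replication genes passed, with medians of 0.05, 0.01 and 0.06. Of all genes 3.51% passed, and at that share lists of these sizes would hold few calls. The statement therefore rests on the medians. In ribosome biogenesis 2 of 45 rose, against 1.32% of all genes: Wdr43 and Nip7, by 0.38 and 0.37. A second bright probe of Wdr43 moved by -0.12 and -0.63. For Nip7 the untreated channel moved by -0.48 and the treated by -0.11. Genes that had been steadily high stayed so: the nuclear RNA Neat1 had 1.46 and 1.50 at 6 h and 1.23 and 1.43 at 4 h, and the amino acid transporter Slc43a2 1.44 and 1.58 at 6 h and 1.30 and 1.24 at 4 h. Traf1 stayed low, at -0.97 and -0.99 at 6 h and -1.08 and -1.11 at 4 h.

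Some genes passed without being above background in every channel, and their levels are uncertain. The largest were Olfr502, Thoc2l, Phox2a, Clec1b and Tha1, which rose by 0.35 to 0.61, and Gipr, Olfr711, Csf1, Atf3 and Eif2b3, which fell by 0.37 to 0.54. The second probe of Thoc2l moved by 0.11 and 0.07 and that of Gipr by 0.19 and -0.49.

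Within each bacterium there is no replicate and no test. With L. acidophilus 29 genes (0.196%) differed at least 2-fold between 6 and 4 h, 15 higher (0.101%) and 14 lower (0.0946%). With B. clausii there were 54 (0.365%), 33 higher (0.223%) and 21 lower (0.142%). The largest rises with L. acidophilus were in Cdca5 (sororin, a cohesin protector), H3c14, Psma4, Klf2, B3galt6 and Skil. In L. acidophilus-treated cells Cdca5 had 1.06 (6 h) and -0.27 (4 h), beside B. clausii values of -0.75 (6 h) and -0.36 (4 h). With L. acidophilus the dim second probe of Cdca5 moved by -0.13, and that of Psma4, nearly as bright as the first, by 0.30. The largest falls with L. acidophilus were in Dpp7, Kif2a, Vegfb, Mpp3, Psmd2 and Lpin1. There the second probe of Psmd2 moved by -0.20 and the dim one of Dpp7 by 0.03. Dpp7 owed its fall to a 4 h ratio of 1.54, while its other 7 arrays lay between 0.00 and 0.58. With B. clausii the largest rises were in Brd8, Mcat, Tomm6, Slc3a2, Banp and Ubtf, and the largest falls in Mcoln1, Ebp, Macroh2a1, H4c6, Bbc3 and Ddit4. Brd8 owed its place to a 4 h ratio of -2.07 on a single spot, against -0.18 to 0.12 on the other arrays, and its dim second probe moved by -0.08. Slc3a2, the heavy chain of amino acid exchangers, had B. clausii values of 1.64 (6 h) and 0.19 (4 h), beside L. acidophilus values of -0.12 (6 h) and -0.26 (4 h). With B. clausii the dim second probe of Slc3a2 moved by 0.04 and the second probe of Ubtf by -0.38. Dimmer probes of Macroh2a1 moved by 0.19 and -0.29. H3c14 and H4c6 are histone genes with near-identical copies, so their signal may be shared with those.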

How the data were processed

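RNA of RAW264.7 cells was measured on two-colour Agilent arrays, 1 for each of 2 bacteria and 4 times. Per the file headers, the deposited intensity of a spot is its mean foreground, with the median of its local background, in each channel; they name Feature Extraction 10.7.3.1 and probe positions on mm9; the submitters' processing notes give version 10.5.1.1. The processed intensities, background-subtracted and dye-normalized by that software, and its deposited log10 ratios were made by the authors and used as alternatives, with the series matrix values; the deposited files also hold 0 or 1 flags. Per the labels, treated RNA was red on all arrays, so dyes were not exchanged.

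Background was corrected by normexp (offset 50) after local backgrounds marked by the scanner software and above 3 times the median were set to the median; log2 ratios were normalized by loess within arrays. Replicate spots were averaged, and a probe was kept where, on 2 or more of the 8 arrays, either channel was well above background and all 8 had an unflagged spot (21292 of 41174). Names came from a RefSeq annotation (GRCm38.p6) or the files. Each of 14798 genes was represented by its brightest probe, which is a choice that matters where probes disagree (4837 genes have several). Limma 3.58.1 (R 4.3.3, statmod 1.5.0, data.table version 1.17.8) fitted time and bacterium to all 8 arrays, with Benjamini-Hochberg adjustment; the prior had 5.78 degrees of freedom and the median SE was 0.0923 log2. The pairing by bacterium comes from the design: slide and scan coincide with it. Single channels were fitted after Aquantile scaling. Values after ± are standard errors. Precision is limited by the number of arrays, and p-values measure only the spread between arrays of pooled RNA. In bulk RNA, a changed share of cells and a changed level per cell cannot be told apart. In data simulated for 14798 genes with 200 changed, 50.4% of changes of 0.5 log2 and 98.6% of changes of 1 log2 were recovered, with 4.93% of calls false. These shares describe the simulated data and do not estimate the false share of the 519 calls.

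Named genes were the 15 largest called changes in each direction, up to 5 dim ones, up to 6 per bacterium and direction, up to 6 of opposite direction, up to 6 per list (37 lists) and a panel of 34. Members, lists and rule were chosen with earlier results of these data known. Pdia6, Dnajc3, Dnajb9 and other list members beyond the 6 were named after their values were seen. Some genes that the rule names are not reported here. Tables and drawings used pandas 2.3.3, numpy 2.4.6 and matplotlib 3.10.9.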

Additional observations from a re-analysis of the deposited data

Results flagged for a closer look

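Of the 9663 genes with a symbol that were above background in both channels of all 4 arrays, 6 moved by at least 0.5 log2 in opposite directions with the 2 bacteria, and in each the ratio was higher at 6 h than at 4 h with L. acidophilus and lower with B. clausii. With 1 array for each bacterium and time this difference was not tested. The difference of the changes, L. acidophilus minus B. clausii, was 1.72 for Mios (a component of the GATOR2 complex in amino acid sensing), 1.65 for Skil (SnoN, an inhibitor of SMAD signalling), 1.53 for Rbbp7 (a histone-binding chromatin protein), 1.51 for Ift122 (ciliary transport), 1.44 for Mrps28 (a mitochondrial ribosomal protein) and 1.40 for Tmed10 (a cargo receptor between ER and Golgi). At 4 h the bacteria lay close together in each, so the 6 h arrays separate them: Mios had 0.76 with L. acidophilus and -1.06 with B. clausii at 6 h, against -0.08 and -0.17 at 4 h. Skil had 1.56 and -0.02 at 6 h, against 0.47 and 0.54 at 4 h. Rbbp7 had 0.99 and -0.56 at 6 h, against 0.01 and -0.02 at 4 h. Second probes did not repeat the split where there was one: that of Mios moved by 0.30 and 0.11, that of Skil by -0.28 and -0.33, and that of Tmed10 by -0.01 and -0.55.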

How the results depend on the processing

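Directions held better than counts, in part because the choice of genes fixed them. All 519 genes moved the same way with both bacteria, so leaving out an array could hardly turn one. Taking out the bacterium term leaves the change itself as it was. All 30 leading genes kept their sign under the 18 alternatives that refit the genes, and the 104 named genes that passed under each alternative that kept them (17 for 10 dim genes), but each leading gene passed in only 3 to 13 of them. The 519 genes of the ratio became 20 with the local background as deposited, 0 with a background offset of 0, 0 with the processed signals, 0 with the series matrix values, 70 with median centring, 160 with no filter, 925 with both channels required on all 4 arrays, 240 with only the 4 arrays of 4 and 6 h, 119 without both 2 h arrays, 83 with no bacterium term (no replicate block) and 1295 at adjusted p under 0.1. All 20, 158 of the 160 and 502 of the 925 were among the 519. In those 3 settings with 0 calls by limma, 2798, 2584 and 2575 genes had an unadjusted p under 0.05. The higher share of 37.8% was 20.0% with local background as deposited, 20.0% with median centring and 26.5% without the block. Leaving out an array gave 0 to 712 genes, 0 without the 4 h B. clausii array, 6 without the 4 h L. acidophilus array, 169 without the 6 h B. clausii array and 712 without the 6 h L. acidophilus array, and the lone array of its time is then assumed to vary like the others. The pairing by bacterium was part of the fit.

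The treated channel's 77 genes became 262 with median-scaled channels, 143 with both channels required, 0 with only the 4 arrays, 0 without both 1 h arrays, 0 without both 2 h arrays, 42 with no bacterium term and 167 at adjusted p under 0.1, and 0 to 1273 with an array left out. The untreated channel's 79 became 128 with median-scaled channels, 45 with no filter, 0 with only the 4 arrays, 0 without both 1 h arrays, 0 without both 2 h arrays, 0 with no bacterium term and 137 at adjusted p under 0.1, and 0 to 528 with an array left out. The 29 genes past 2-fold with L. acidophilus became 172 with a background offset of 0, 617 with processed signals, 616 with series matrix values, 18 with the mean over probes and 0 at 3-fold. The 54 with B. clausii became 245, 781, 798, 31 and 1 in the same order. Where limma called 0 genes, an unadjusted p under 0.05 was reached by 876 to 1977 genes in the treated and 511 to 811 in the untreated channel, and by 1777 in the ratio without the 4 h B. clausii array. The cause of these shifts was not tested.

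With an array left out, genes that moved oppositely turned, as they must: Rbbp7 ranged from -0.52 to 0.97, Skil from -0.61 to 1.14, Tnfsf13b from -0.49 to 1.04, Mrps28 from -0.50 to 0.89, Ift122 from -0.51 to 0.98, Tmed10 from -0.71 to 0.70 and Mios from -0.90 to 0.86, with the lower end without the 6 h L. acidophilus array and the upper end without the 6 h B. clausii array. The median of the ER list stayed between -0.44 and -0.32 under the 18 alternatives, that of cholesterol synthesis between -0.32 and -0.19 and that of the clock between -0.44 and -0.16. The number of ER genes that fell ranged from 0 to 15. The median of the MAP kinase feedback list changed sign in 4 of the 18. Genes near background are limited by signal.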
